A study of Homo sapiens with 6 samples.

Results

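The 36 genes described here encode components of the NF-kB pathway and genes that NF-kB itself switches on as feedback. They comprise 5 NF-kB subunits, 5 IkB proteins, 9 members of the IKK and TAK1 kinase complexes, 10 TNF receptors and signalling adaptors, and 7 feedback brakes and other targets. They were picked by gene symbol from a table of 27009 genes, and all 36 were present. All 36 also passed the minimum level for testing (10 or more in 3 or more of the libraries), as did 15076 genes in all. The RNA came from Hep3B, a human hepatocellular carcinoma cell line, in bulk culture. Both groups were knockouts for the cells' own PD-L1. The 3 vector libraries came from knockout cells that carried the empty vector, and the 3 nPD-L1 libraries from knockout cells that stably expressed a mutant PD-L1 kept in the nucleus, from a lentiviral plasmid with the CMV promoter. The study's methods name Polybrene for infection and puromycin or G418 for selecting infected cells, with no word on which drug these lines received, and whether each line was a single clone is not given in the sources used here. The comparison asked how the nuclear form changed gene expression in cells without PD-L1 of their own. The study calls the 3 samples of a group independent, but no source used here says that they came from separate cultures, so p-values measure only the spread between these libraries, which may be technical.

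NF-kB is a family of dimeric transcription factors that IkB proteins hold inactive. In the canonical branch, receptors such as the TNF receptor recruit TRAF and RIPK adaptors, the TAK1 and IKK kinases are activated, IkB is degraded, and dimers of RELA and NFKB1 enter the nucleus. In the noncanonical branch, the kinase NIK (MAP3K14) accumulates once TRAF3, TRAF2 and the cellular inhibitors of apoptosis stop driving its degradation, and p100 (NFKB2) is processed to p52. Among the genes that NF-kB induces are its own inhibitors, including NFKBIA and TNFAIP3, and in hepatocytes the pathway is known for acute-phase responses and for survival after TNF.

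The promoters of 6 members are printed because they hold a match to the NF-kB binding consensus. BIRC3, NFKBIZ, BCL3 and NFKB1 were among the members that differed between the groups, and NFKBIA and TNFAIP3 are the textbook feedback inhibitors. Each window runs from 250 bases before to 50 bases after an annotated start, 300 bases in all, 5′ to 3′ on the strand of the gene, as given by RefSeq on GRCh38.p14. Capitals mark bases that match the degenerate 10-base kappaB consensus on either strand. The windows lie at chr11:102317234-102317533 (plus strand) for BIRC3, chr3:101827740-101828039 (plus) for NFKBIZ, chr19:44748458-44748757 (plus) for BCL3, chr4:102501109-102501408 (plus) for NFKB1, chr14:35404700-35404999 (minus) for NFKBIA and chr6:137867009-137867308 (plus) for TNFAIP3.
BIRC3: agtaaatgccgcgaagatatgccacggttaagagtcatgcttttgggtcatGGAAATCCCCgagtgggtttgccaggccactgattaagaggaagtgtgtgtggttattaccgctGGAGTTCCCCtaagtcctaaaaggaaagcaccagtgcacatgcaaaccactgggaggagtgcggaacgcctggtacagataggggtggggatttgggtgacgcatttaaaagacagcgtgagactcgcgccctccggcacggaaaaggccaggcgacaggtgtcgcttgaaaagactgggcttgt
NFKBIZ: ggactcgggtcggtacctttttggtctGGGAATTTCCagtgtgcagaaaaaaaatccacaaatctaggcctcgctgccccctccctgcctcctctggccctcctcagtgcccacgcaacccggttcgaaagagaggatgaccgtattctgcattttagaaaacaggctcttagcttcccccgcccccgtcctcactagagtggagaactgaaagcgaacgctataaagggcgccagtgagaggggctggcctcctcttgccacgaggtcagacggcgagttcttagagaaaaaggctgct
BCL3: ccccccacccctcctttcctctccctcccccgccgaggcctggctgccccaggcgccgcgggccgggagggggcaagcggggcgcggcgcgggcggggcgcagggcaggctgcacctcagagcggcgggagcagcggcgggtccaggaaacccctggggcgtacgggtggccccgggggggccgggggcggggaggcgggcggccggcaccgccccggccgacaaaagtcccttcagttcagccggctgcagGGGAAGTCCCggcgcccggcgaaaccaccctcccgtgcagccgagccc
NFKB1: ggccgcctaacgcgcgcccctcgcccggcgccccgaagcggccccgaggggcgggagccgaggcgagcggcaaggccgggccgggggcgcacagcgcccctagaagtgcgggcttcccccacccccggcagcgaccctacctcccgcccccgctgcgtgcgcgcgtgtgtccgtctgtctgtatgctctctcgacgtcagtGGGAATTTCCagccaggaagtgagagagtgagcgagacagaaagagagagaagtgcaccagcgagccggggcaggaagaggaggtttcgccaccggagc
NFKBIA: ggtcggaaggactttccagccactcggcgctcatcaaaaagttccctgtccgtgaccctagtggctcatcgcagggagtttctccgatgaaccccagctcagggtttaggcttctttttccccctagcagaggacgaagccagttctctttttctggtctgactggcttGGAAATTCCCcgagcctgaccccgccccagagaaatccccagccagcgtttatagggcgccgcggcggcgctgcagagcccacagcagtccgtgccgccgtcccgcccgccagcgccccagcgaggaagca
TNFAIP3: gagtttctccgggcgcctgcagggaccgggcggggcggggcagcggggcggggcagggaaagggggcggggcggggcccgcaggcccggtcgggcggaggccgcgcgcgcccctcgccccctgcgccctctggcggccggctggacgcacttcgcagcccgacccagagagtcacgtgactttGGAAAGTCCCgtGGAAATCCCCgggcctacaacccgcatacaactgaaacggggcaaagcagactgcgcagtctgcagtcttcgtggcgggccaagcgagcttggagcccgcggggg

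Promoter windows were matched for 32 of the 36 members. NFKBIE, RIPK2, IKBKB and RELB were not matched. The degenerate consensus was present in 14 of the 32, which were BCL3, BIRC3, CFLAR, CYLD, NFKB1, NFKB2, NFKBIA, NFKBIB, NFKBIZ, REL, TAB2, TNFAIP3, TNIP1 and TRAF3. Counted by window, 17 of the members' 53 windows (32.1%) held it, against 5.91% of all 35116 windows, and 7.09% of 27305 genes held it in at least 1 window. The exact kappaB enhancer sequence, also searched on both strands, is one case of the consensus, and its reverse complement is the first capitalised run in the TNFAIP3 window. It was in a window of CYLD, NFKB2, TNFAIP3 and TNIP1, and in 0.191% of all windows. BIRC3 held 2 matches, which began 199 and 135 bases before the start. No match was found in the windows of MAP3K14 and TNFAIP2. A match describes letters in a window and was not tested for binding. The members include genes picked as NF-kB targets, so a higher share than over all windows is not an independent result.

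The values in the table were scaled reads, that is, reads on a gene divided by a size factor for the library, and they summed to 18082164 to 19682128 per library. In the 4 libraries whose whole reads could be recovered, 17427519 to 22253295 reads lay on genes. TNFRSF1B, the lowest member, stayed below 20 scaled reads in every library. CD274, which encodes PD-L1, was at 28.3, 38.4 and 47.8 scaled reads in vector replicates 1, 2 and 3, and at 16.8, 19.2 and 30.9 in the libraries labelled nPD-L1. CD274 was thus no higher under the nPD-L1 label (log2 fold change -0.76, SE 0.34, limma adjusted p = 0.338), and every direction given here rests on the labels. Vector replicate 2 stood apart, with the highest value of the 6 libraries for 29.5% and the lowest for 28.0% of all genes tested. The label of a liver cancer line was met by few markers. Only 3 of 13 hepatocyte markers measured were over 100 in every library, the fibrinogen genes FGA, FGB and FGG at 658 to 3286 scaled reads, whereas ALB, TTR, APOA1, APOA2, APOB, TF and AHSG were at 3.39 or less in every library. HNF4A was at 6.24 to 19.2 in vector and 33.8 to 51.6 in nPD-L1 (limma adjusted p = 0.0232). Of 7 leukocyte markers measured, 5 stayed under 10 in every library, and their sum was 6.24 to 19.2 in vector and 14.2 to 31.1 in nPD-L1. The sum of 6 stromal and endothelial markers was 173 to 246 in vector and 587 to 656 in nPD-L1, a gap carried by COL1A1, since the other 5 summed to 108 to 183 and 122 to 169. The part of COL1A1, HNF4A and the other markers in the results below was not tested. In bulk RNA, fewer cells expressing a gene and less of its RNA per cell cannot be told apart.

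A small set of members differed between the groups, in both directions. MAP3K14, BCL3, TNFAIP2 and NFKB1 were higher in the libraries labelled nPD-L1, and BIRC3 and NFKBIZ were lower. These 6 of 36 members (16.7%) passed a Benjamini-Hochberg adjusted p under 0.05 in limma, fitted across all genes tested, against a background of 4.96% of all genes. By direction, 4 members were higher, against a background of 4.04%, and 2 were lower, against 0.922%. At a mean level of 100 or more, where 35 members lay, the background was 4.6% higher, 1.04% lower and 5.64% in either direction. The median log2 fold change (nPD-L1 minus vector, on log2 of the scaled reads plus 1) was 0.06 over the members and -0.02 over all genes tested. At an unadjusted p under 0.05 there were 7 higher and 3 lower members, against 9.53% and 4.71% of all genes. Of the members, 24 (66.7%) lay within 0.25 of 0 on the log2 scale, beside 67.4% of all genes, and 1, NFKBIZ, was called with a 2-fold change. With that requirement 0 members were higher and 1 was lower, against 2.03% and 0.451% of all genes. In 16 members (44.4%) the groups did not overlap, 10 with all nPD-L1 libraries above and 6 with all below. Of all genes 20.6% did not overlap, 12.0% above and 8.54% below, and of the 10725 genes with a mean of at least 100 it was 22.0%.

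On the 4 libraries with recovered reads, edgeR called 1 member higher and 0 lower (1.56% and 0.318% of all genes), DESeq2 3 and 2 (2.25% and 0.575%), and limma 1 and 1 (1.68% and 0.352%). MAP3K14 was called in each of these 3 fits, and the 6 genes kept their direction in all of them. NFKB1 was called in none of the 3 (adjusted p = 0.523 in edgeR, 0.666 in DESeq2 and 0.509 in limma), and TNFAIP2 was lost in edgeR (0.167) and limma (0.170). BCL3 (0.0849 in edgeR and 0.0707 in limma) and BIRC3 (at most 0.0864) were lost in the same 2 fits, and NFKBIZ was lost in edgeR (0.0537).

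**Figure D1:**
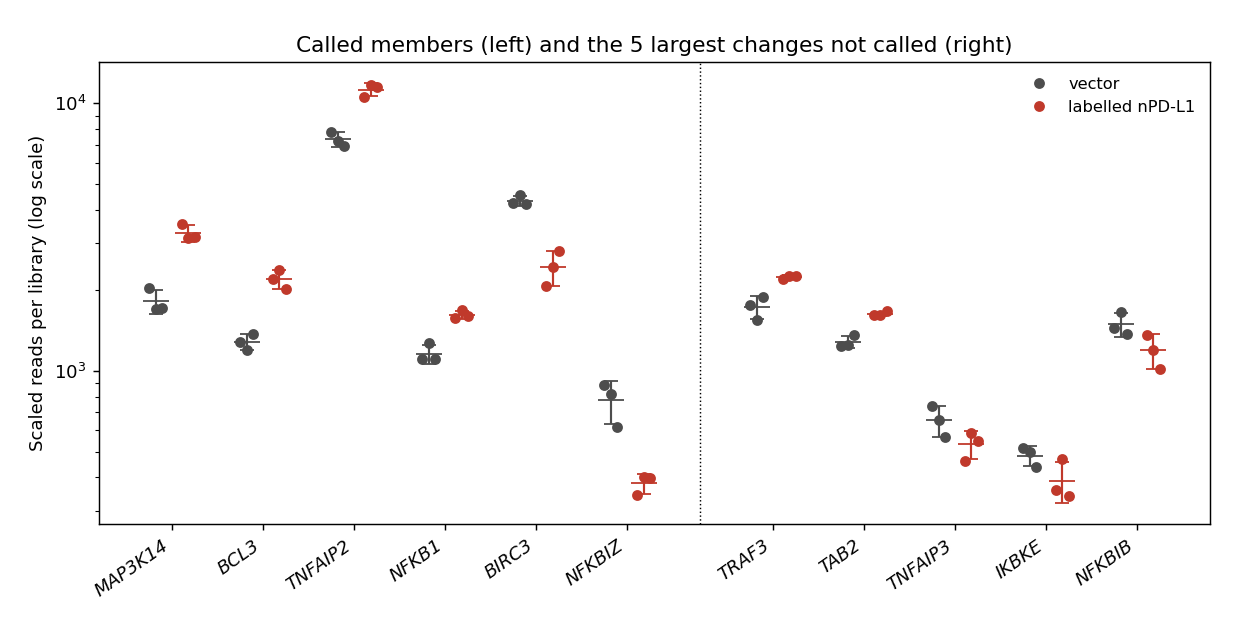
Scaled reads (log axis) in each library for the 6 called members, left, and the 5 largest changes that were not called, right; points are libraries and bars are the mean ± SD of 3 libraries in each group. The groups are apart for all 6 called members, from NFKBIZ at 343 to 888 up to TNFAIP2 at 6923 to 11669.7 scaled reads, and on the right they overlap for TNFAIP3 and IKBKE.

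**Figure D2:**
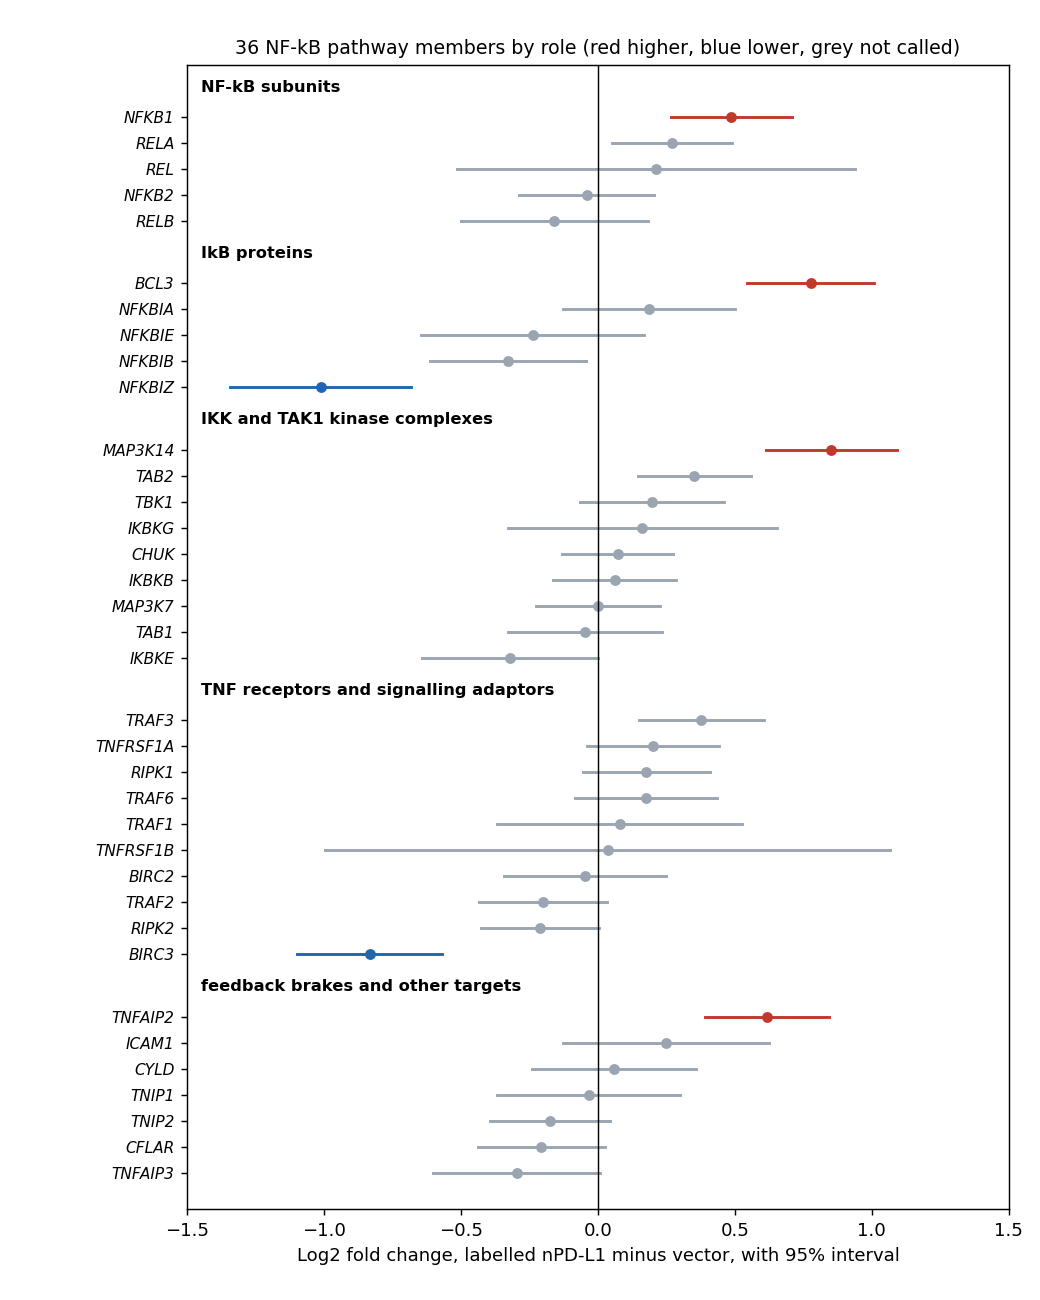
Log2 fold change (nPD-L1 minus vector) of all 36 members with 95% intervals from limma, grouped by role; filled colours mark adjusted p under 0.05. MAP3K14 at 0.85 and NFKBIZ at -1.01 are the extremes, and most intervals cross 0.

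Among the 5 DNA-binding subunits, NFKB1 was higher in the libraries labelled nPD-L1 and the other 4 did not pass the test. Gene positions are given on hg38 as in the table. NFKB1, which encodes p105 and its product p50, lies at chr4:102501329-102617302 on the plus strand. It was at 1105, 1269 and 1105 scaled reads in vector replicates 1, 2 and 3, and at 1576, 1684 and 1608 in nPD-L1. All nPD-L1 libraries were above all vector libraries, and the log2 fold change was 0.49 (SE 0.10, limma adjusted p = 0.0166). This was the least stable of the 6 calls, since it was lost when vector replicate 1 (adjusted p = 0.113) or nPD-L1 replicate 1, 2 or 3 (adjusted p = 0.0649, 0.111 and 0.0841) was left out of limma.

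RELA, the main transactivating subunit of the canonical dimer, was at 2042, 1891 and 1979.8 scaled reads in vector and 2574, 2366 and 2198 in nPD-L1. The groups did not overlap, but the log2 fold change of 0.27 (SE 0.10) did not pass the adjusted test (limma adjusted p = 0.210). RELB, the noncanonical partner of p52, ranged from 1167 to 1854 in vector and 1222 to 1427 in nPD-L1, with the latter inside the former. NFKB2, the precursor of p52, had overlapping groups with a log2 fold change of -0.04 and a 95% interval of -0.29 to 0.21. REL, the subunit best known from lymphocytes, was the least precisely measured, at 142, 66.6 and 199.5 in vector against 129 to 158 in nPD-L1, with an interval of -0.51 to 0.94. Levels of different subunits were compared per kilobase of gene length. In vector they ran from NFKB2 (1262 ± 114 scaled reads per kb, SD, n = 3) through RELB (495 ± 113), RELA (361 ± 13.9) and NFKB1 (185 ± 15.2) to REL (10.3 ± 5.06). RELB was above RELA in 5 of 6 libraries, and each other step of this order held in all 6.

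The 5 IkB proteins held both the largest fall of the members and, after MAP3K14, the largest rise. NFKBIZ, an atypical nuclear IkB that acts as a cofactor at a set of inflammatory promoters, lies at chr3:101827991-101861022 on the plus strand. It was at 888, 822 and 618 scaled reads in vector and 343, 401 and 398 in nPD-L1. Every nPD-L1 library was below every vector library, and NFKBIZ fell by 1.01 on the log2 scale (SE 0.15, limma adjusted p = 0.00223). BCL3, the other nuclear IkB among the members, which binds p50 and p52 dimers on DNA, lies at chr19:44747705-44760044 on the plus strand. It was at 1281, 1196 and 1379 in vector and 2202, 2387 and 2023 in nPD-L1. Again the groups were apart, in the opposite direction, with a log2 fold change of 0.78 (SE 0.10, limma adjusted p = 0.00126).

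The inhibitors that hold NF-kB in the cytoplasm did not pass the test. NFKBIA (IkB alpha), whose transcription follows NF-kB activity within minutes, was at 1986, 2483 and 1694 scaled reads in vector and 2309, 2549.8 and 2088 in nPD-L1, so the groups overlapped (log2 fold change 0.19, 95% interval -0.13 to 0.50). NFKBIB (IkB beta) was at 1446, 1665 and 1369.7 in vector and 1367, 1199.5 and 1016 in nPD-L1. The groups of NFKBIB were separated by a narrow margin, and the log2 fold change of -0.33 (SE 0.13) did not pass (limma adjusted p = 0.255). NFKBIB overlaps SIRT2 on the opposite strand, which was at 45.3% of its mean, and strand use in counting is not given, so reads of the pair cannot be told apart. NFKBIE (IkB epsilon) ranged from 369 to 661 with overlapping groups. Per kilobase, the order in vector was NFKBIA (866 ± 168, SD, n = 3), NFKBIB (643 ± 65.9), BCL3 (396 ± 28.3), NFKBIE (199.5 ± 49.6) and NFKBIZ (132 ± 23.8). NFKBIA was above NFKBIB in all 6 libraries, although their ranges in vector overlapped. In nPD-L1, BCL3 (679.8 ± 56.1) was above NFKBIB (514 ± 75.6).

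**Figure D3:**
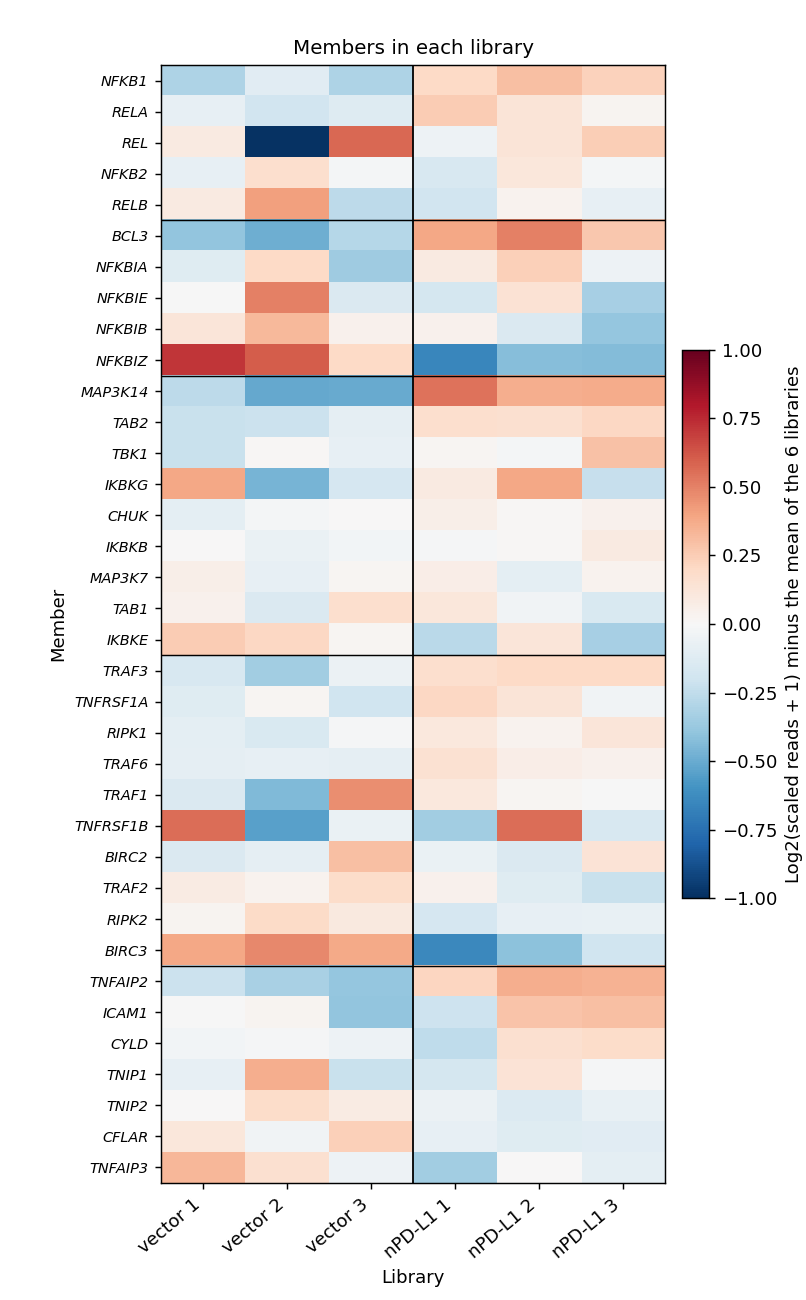
Log2(scaled reads + 1) of each member in each library minus its mean over the 6 libraries, with members grouped by role and a vertical line between the groups. BCL3, MAP3K14, TNFAIP2 and NFKB1 turn from blue to red at the line and NFKBIZ and BIRC3 from red to blue, while REL, IKBKG and TNFRSF1B vary as much within a group as between groups.

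Among the 9 genes of the IKK and TAK1 kinase complexes, MAP3K14 was higher and no other gene passed the test. MAP3K14 encodes NIK, the kinase that starts the noncanonical branch, and lies at chr17:45263119-45317145 on the minus strand. It was at 2034, 1704 and 1719.9 scaled reads in vector and 3554, 3128 and 3158 in nPD-L1. The lowest nPD-L1 library was well above the highest vector library, and the log2 fold change was 0.85 (SE 0.11, limma adjusted p = 0.000822), the largest rise and the smallest p of the members. An antisense gene, MAP3K14-AS1, overlaps it at 2.66% of its mean and had a log2 fold change of 0.95 that did not pass the test (limma adjusted p = 0.110).

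TAB2, which tethers TAK1 to ubiquitin chains, was at 1237, 1249 and 1359 scaled reads in vector and 1624, 1613 and 1669 in nPD-L1. The groups were apart and tight, but the log2 fold change of 0.35 (SE 0.09) narrowly missed the threshold (limma adjusted p = 0.0625). IKBKE, an IKK-related kinase of antiviral signalling, was at 514, 497 and 438 in vector and 358, 467 and 341 in nPD-L1. Its groups overlapped, with a log2 fold change of -0.32 (SE 0.15, limma adjusted p = 0.354). CHUK (IKK alpha) had a log2 fold change of 0.07 with an interval of -0.13 to 0.28, IKBKB (IKK beta) 0.06 with -0.16 to 0.29, and MAP3K7 (TAK1) 0.00 with -0.23 to 0.23. These intervals stayed inside a 1.5-fold change (0.58 on the log2 scale) in either direction. TBK1, the partner of IKBKE, and TAB1, the activating subunit of TAK1, had overlapping groups and log2 fold changes of 0.20 and -0.05. CHUK overlaps ERLIN1, a gene on the same strand with a higher mean.

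IKBKG encodes NEMO, the regulatory subunit of IKK, and its value is uncertain because of a near-identical copy, IKBKGP1. IKBKG was at 432, 239 and 294 scaled reads in vector and 352, 432 and 281 in nPD-L1. IKBKGP1 was at 294 in vector replicate 2 and at 11.1 to 31.2 in the other 5 libraries. The library with the lowest IKBKG was thus the one with the highest IKBKGP1, and the log2 difference turned from 0.16 for IKBKG alone to -0.21 for the sum of both.

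Of the 10 receptors and adaptors, BIRC3 was lower in the libraries labelled nPD-L1 and no other gene passed the test. BIRC3 encodes cIAP2, a ubiquitin ligase that modifies RIPK1 and helps degrade NIK, and is itself a standard NF-kB target. It lies at chr11:102317450-102339403 on the plus strand. Its level was 4239, 4528 and 4214 scaled reads in vector and 2075, 2438 and 2819.7 in nPD-L1. All 3 nPD-L1 libraries were far below the vector libraries, and BIRC3 fell by 0.83 on the log2 scale (SE 0.12, limma adjusted p = 0.00184). BIRC2, which encodes the related cIAP1 and starts 7807 bases downstream of the end of BIRC3, had a log2 fold change of -0.05 (95% interval -0.34 to 0.25) and overlapping groups.

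TRAF3, the adaptor that brings NIK to its ligases, was at 1768, 1551 and 1898 scaled reads in vector and 2214, 2267 and 2274 in nPD-L1. The groups did not overlap and the log2 fold change of 0.38 (SE 0.10) missed the threshold (limma adjusted p = 0.0698). TRAF2, its partner in that complex, had overlapping groups and a log2 fold change of -0.20, with an interval of -0.43 to 0.03. TRAF6, the adaptor of Toll-like and interleukin-1 receptors, was at 325 to 328 in vector and 357 to 386 in nPD-L1, apart but by 0.17 on the log2 scale. RIPK1, the scaffold kinase of the TNF receptor complex, was at 548 to 605 in vector and 626 to 663 in nPD-L1, apart by 0.18 on the log2 scale. RIPK2, the kinase of the NOD receptors, was at 1087 to 1216 in vector and 949.6 to 1014 in nPD-L1. TRAF1, itself an NF-kB target, ranged more widely in vector (256 to 483) than in nPD-L1 (347 to 376).

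The TNF receptors differed widely in level, and neither passed the test between groups. TNFRSF1A, the death-domain receptor, was at 6557 to 7621 scaled reads in vector and 7351 to 8657 in nPD-L1, overlapping groups with a log2 fold change of 0.20. TNFRSF1B, the receptor typical of immune and endothelial cells, was at 7.91 to 18.2 in all 6 libraries (log2 fold change 0.04, SE 0.47). Its 95% interval ran from -0.996 to 1.07, so changes within that range were not excluded. In vector TNFRSF1A stood at 1754 ± 136 scaled reads per kb and TNFRSF1B at 3.32 ± 1.38 (SD, n = 3), the highest and the lowest of the 10.

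Of the 7 feedback brakes and other targets, TNFAIP2 was higher and the others did not pass the test. TNFAIP2, a TNF-induced protein linked to membrane protrusions, lies at chr14:103123442-103137439 on the plus strand. It was at 7834, 7237 and 6923 scaled reads in vector and 10529, 11669.7 and 11554 in nPD-L1. All nPD-L1 libraries were above the vector libraries, with a log2 fold change of 0.62 (SE 0.10, limma adjusted p = 0.00453). TNFAIP3 (A20), the ubiquitin-editing brake on IKK activation, was at 739, 655 and 567 in vector and 461, 587 and 547 in nPD-L1. The groups overlapped, since nPD-L1 replicate 2 was above vector replicate 3, and the log2 fold change was -0.30 (SE 0.14, limma adjusted p = 0.368).

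TNIP1 and TNIP2, which bind A20 and ubiquitin, had log2 fold changes of -0.03 and -0.18, and TNIP2 lay wholly below in nPD-L1 (868 to 916 against 954 to 1079 scaled reads). CFLAR (c-FLIP), which blocks caspase-8 at death receptors, also lay wholly below, at 899 to 922 against 952 to 1151, with a log2 fold change of -0.21 (95% interval -0.44 to 0.02). CYLD, a deubiquitinase that removes activating chains, was at 530 to 544 in vector and 459.7 to 621 in nPD-L1, with vector inside the nPD-L1 range. ICAM1, an adhesion molecule induced by TNF, was at 357 to 481 and 408 to 579, with a log2 fold change of 0.25 and an interval of -0.13 to 0.63.

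Across the 30 members that were not called, log2 fold changes ran from -0.33 to 0.38 and limma adjusted p-values from 0.0625 to 0.999. In 21 of these 30 the 95% interval stayed within a 1.5-fold change, and in 9 it reached past it, namely REL, NFKBIB, NFKBIE, TNFAIP3, TRAF3, IKBKG, IKBKE, TNFRSF1B and ICAM1. The median coefficient of variation over all 36 members was 8.67% in vector and 8.42% in nPD-L1, beside 14.7% and 10.2% over all genes tested, and in vector it reached 49.0% for REL and 41.7% for TNFRSF1B. Vector replicate 2 held the highest value of 8 members and the lowest of 10. Without it, 5 members were higher, with TAB2 added to the 4 (limma adjusted p = 0.0352), and BIRC3 and NFKBIZ were lower, against 5.26% and 1.62% of all genes.

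Ratios within a library cancel its scaling factor, so 8 pairs of related members were compared that way. For 5 pairs the groups did not overlap. Each was at the smallest p that 3 against 3 libraries allow (exact permutation test, two-sided, p = 0.1, adjusted over 8 pairs 0.16), so none could pass 0.05. Each of the 5 pairs holds a member whose groups were already apart alone, so the separation is not further support. The share of separated ratios among other gene pairs was not computed. The pair of nuclear IkB members differed most. BCL3 over NFKBIZ was 1.44, 1.45 and 2.23 in vector and 6.42, 5.96 and 5.08 in nPD-L1, a 3.46-fold difference of the means on the log scale. BIRC3 over BIRC2 was 3.14, 3.23 and 2.30 in vector and 1.46, 1.81 and 1.72 in nPD-L1, so the neighbouring genes came closer together. NFKB1 over NFKB2 was 0.205 ± 0.00465 in vector and 0.296 ± 0.0190 in nPD-L1 (SD, n = 3). TRAF3 over TRAF2 was 1.22 ± 0.0678 and 1.83 ± 0.193, and TAB2 over TAB1 was 2.40 ± 0.194 and 3.17 ± 0.332. The groups overlapped for RELA over RELB, IKBKE over TBK1 and TNIP1 over TNIP2.

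**Figure D4:**
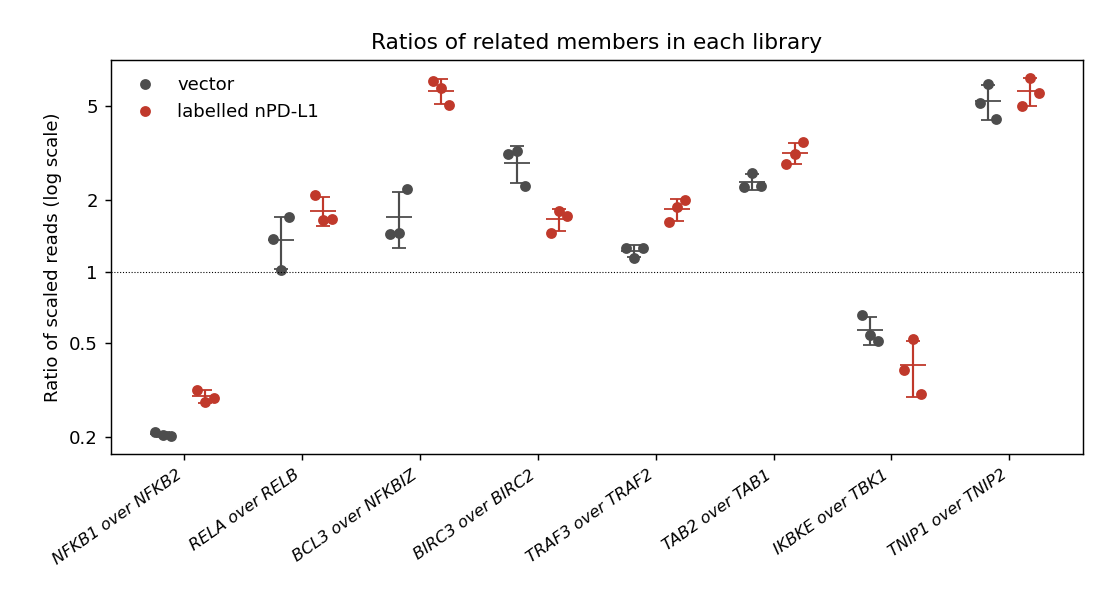
Ratio of scaled reads within each library (log axis) for the 8 pairs, with points for libraries and bars for the mean ± SD of 3 libraries in each group. BCL3 over NFKBIZ lies at 1.44 to 2.23 in vector and 5.08 to 6.42 in nPD-L1, and 5 of the 8 pairs are separated.

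A wider list of 68 pathway genes outside the 36 showed few changes. Of the 61 that passed the minimum level, 3 were higher and none was lower (4.92%, beside 4.96% of all genes), and the median log2 fold change was 0.04. At an unadjusted p under 0.05 there were 12 of the 61, none of them lower, beside 9.53% of all genes higher and 4.71% lower. ZC3H12A, which encodes the ribonuclease Regnase-1 that degrades inflammatory mRNAs, was at 457, 454 and 424 scaled reads in vector and 936, 1055 and 950.2 in nPD-L1, with the groups well apart (log2 fold change 1.14, SE 0.11, limma adjusted p = 9.62e-05). IRAK2, a kinase-like adaptor of interleukin-1 signalling, was higher by 0.82 (SE 0.10, limma adjusted p = 0.000602). TNFRSF12A, the TWEAK receptor, was higher by 0.56 (SE 0.11, limma adjusted p = 0.0123), a call lost without vector replicate 1 or nPD-L1 replicate 1 or 2 (limma adjusted p = 0.0740, 0.0784 and 0.0648). The 20 kinase and ubiquitin genes of this list had no call in limma. Of these 20, 3 were at an unadjusted p under 0.05, beside the same 9.53% and 4.71% of all genes, and this count is not read as a result.

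Genes known as NF-kB targets moved in both directions, with more of them lower. Of 48 listed, 47 were in the table and 38 were tested, of which 2 were higher and 9 lower (28.9%, beside 4.96% of all genes, by direction 4.04% and 0.922%), with a median log2 fold change of -0.09. The list was written with earlier results of these data known, so its direction is not independent evidence. IL6, an inflammatory cytokine, was at 52.5, 82.4 and 23.9 scaled reads in vector and 4.20, 5.06 and 11.6 in nPD-L1 (log2 fold change -2.71, SE 0.52, limma adjusted p = 0.0106). That call was lost without vector replicate 1 or nPD-L1 replicate 1 (limma adjusted p = 0.0668 and 0.0677). IL6 was under 10 in nPD-L1 replicates 1 and 2, so it met the minimum level through the vector libraries. The size of its fall is therefore uncertain. CXCL3, a neutrophil chemokine, was at 1120.4, 1272 and 826 in vector and 236, 244 and 243 in nPD-L1. The groups did not overlap for IL6 or for CXCL3, and CXCL3 fell by 2.13 on the log2 scale (SE 0.15, limma adjusted p = 1.48e-05). CXCL2, from the same chemokine cluster, fell by 1.86 on that scale (SE 0.14, limma adjusted p = 2.3e-05). PTX3, a soluble pattern-recognition protein, fell by 2.06 (SE 0.15, limma adjusted p = 1.3e-05). The other 5 lower genes were BCL2A1, CCL20, PTGS2, CXCL5 and BCL2L1. In the opposite direction, F3, which encodes tissue factor and starts coagulation, was at 27.3, 30.5 and 33.3 in vector and 144, 139 and 152 in nPD-L1 (log2 fold change 2.22, SE 0.20, limma adjusted p = 8.09e-05). IER3, an immediate-early survival gene, was higher by 1.09 (SE 0.11, limma adjusted p = 0.000192). Vector replicate 2 held the highest value for 47.4% of the tested targets, and leaving out nPD-L1 replicate 1 reduced the 9 lower calls to 4.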

How the data were processed

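RNA was extracted with TRIzol and libraries were made with a NEBNext Ultra RNA kit. The submitters' processing notes name CASAVA, HISAT2 (version 2.0.5) and hg38. The counting tool, annotation and strand setting are not given in the sources used here. The authors deposited a signal per gene and library, reads divided by a size factor, although it is presented as raw. Columns with group means, fold changes and p-values by the authors were not used. Libraries were assigned to groups by sample title. In 4 libraries (vector replicates 2 and 3, nPD-L1 replicates 1 and 3) whole reads were recovered. All values of all 6 libraries were whole multiples of a step within 0.01, but in vector replicate 1 and nPD-L1 replicate 2 the step (1.01 in both) was too close to 1 to be accepted.

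Values were analysed as log2(value + 1) with limma (version 3.58.1, R 4.3.3), eBayes with trend and robust moderation, on genes that reached 10 in 3 or more libraries. Calls were made at a Benjamini-Hochberg adjusted p under 0.05 over all genes tested. The scripts were tested on simulated data, where limma missed most of the smallest changes and a share of calls above the nominal rate fell on unchanged genes. Only the recovered reads of 4 libraries were given to DESeq2 (version 1.42.0) and edgeR (version 4.0.16). Other alternatives were 2 scalings, pseudocounts of 0.1 and 10, filters, non-robust moderation, other thresholds, the replicate number as a block and each library left out. Limma on the same 4 libraries and the sum of IKBKG and IKBKGP1 were added after seeing the data.

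All 36 members are named. Full values are given for those called and for the 5 largest changes not called, and from the other lists up to 4 highest and 4 lowest called genes are named. TRAF6, RIPK1, RELA and some others are described beyond this rule by their values. The members and lists were chosen with earlier results of these data known. Genes of the lists that were not in the table were not analysed here, and values of a few genes are not reported here.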

Additional observations from a re-analysis of the deposited data

How the results depend on the processing

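The 6 called members kept their direction in all 17 alternative fits, and MAP3K14 was called in every one. On 4 libraries, edgeR called 1 member higher and 0 lower, limma 1 and 1, and DESeq2 3 and 2. At an unadjusted p under 0.05 edgeR had 4 higher and 2 lower. The share over all genes was not computed for that cut, so these counts are not read as a result. A 2-fold requirement left 0 higher and 1 lower, and an unadjusted p gave 7 higher. With each library left out in turn, limma called 3 to 5 members higher and 2 lower, beside 2.32% to 5.26% and 0.511% to 1.62% of all genes. NFKB1 was lost without vector replicate 1 or any nPD-L1 library, TAB2 was gained without vector replicate 2 and TRAF3 without vector replicate 3. The members' median log2 fold change was 0.018 to 0.071 in those fits, lowest without vector replicate 2. On 4 libraries the adjusted p of BIRC3 was 0.0864 (edgeR) and 0.05001 (limma), of BCL3 0.0849 and 0.0707, of NFKBIZ 0.0537 by edgeR, of TNFAIP2 0.167 and 0.170, and of NFKB1 0.523 and 0.509 (DESeq2 0.666). Other machinery called higher numbered 2 to 7 with each library left out, 5 without vector replicate 2, 7 without vector replicate 3, and 1 by edgeR. Its median was 0.016 with upper-quartile factors, 0.066 with equal totals, 0.038 to 0.099 with each library left out, and 0.088 (edgeR), 0.082 (DESeq2) and 0.082 (limma) on 4 libraries. Other targets called higher numbered 2 to 4 and called lower 4 to 10 with each library left out, at 4 higher without vector replicate 3 and 4 lower without nPD-L1 replicate 1, and 4 were lower by edgeR and by limma on 4 libraries. Their median was -0.23 to -0.017 with each library left out, lowest without vector replicate 3, and -0.23 (edgeR), -0.24 (DESeq2) and -0.22 (limma) on 4 libraries. The cause of these shifts was not tested. Same-numbered libraries had correlations of their deviations of 0.00927, 0.241 and 0.13. Vector replicate 2 had -0.083 and -0.151 with nPD-L1 replicates 1 and 3, and vector replicate 3 had 0.0902 and -0.228 with nPD-L1 replicates 1 and 2. For these the same-numbered pair was thus the highest, whereas vector replicate 1 correlated better with nPD-L1 replicate 3 (0.0606). The main fit did not take the numbers as pairing, and whether they mark shared handling was not tested. With the replicate number as a block, 6 members were called higher and 2 lower (6.15% and 1.71% of all genes), TAB2 and TRAF3 being added, other machinery called higher rose to 7 and other targets called higher to 6. Whether depth or the spread between libraries limits a member was not tested.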

Other observations

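Several receptors and adaptors that feed NF-kB were at or near 0 in these cells. CD40, TLR2, NOD2, EDAR and IRAK3, which serve B-cell help, bacterial sensing, ectodermal signalling and the damping of interleukin-1 signals, stayed at or below 3.86 scaled reads in every library of both groups. TNFRSF19 reached at most 9.08 scaled reads. Among the target genes, CXCL10 was listed at 0 in 5 libraries and at 1.93 in nPD-L1 replicate 3, and IL1B was at 6.78 in vector replicate 2 and at 1.93 or less in the others. No comparison was made on these genes.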
